A study of Arabidopsis thaliana with 9 samples.

Results

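The comparison described here sets 3 arrays of Arabidopsis thaliana cultures that express AGL15 constitutively (35S:AGL15) against 3 arrays of wild type cultures, 6 of the 9 arrays of the study. The members were chosen by the genotype in the sample titles. All plants were of the Columbia ecotype. In 35S:AGL15 the AGL15 gene is driven by the 35S promoter, a viral promoter active in most plant cells, and the labels do not say how many transgenic lines were used. Seeds of both genotypes germinated in shaken liquid medium with sucrose (2%), MES buffer (10 mM) and the synthetic auxin 2,4-D (4.5 µM), in a daily cycle of 23 h light to 1 h dark, and whole tissue was frozen on day 10. Per the series' design text, 35S:AGL15 gives more somatic embryos at the shoot apical region than wild type. The other 3 arrays, of the agl15-4 agl18-1 double mutant, which has lost the function of both genes, entered the fit only for the shared estimate of the spread. Since whole cultures were sampled, a change in the share of a cell type and a change in RNA per cell cannot be told apart.

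AGL15 encodes a MADS-domain transcription factor, a protein that binds DNA at sites called CArG boxes and that accumulates in plant embryos. Auxin such as 2,4-D can make tissue near the shoot apex form somatic embryos, which are embryos that arise from cells of the plant body without fertilisation. In tissue that enters embryo development, seed products such as oleosins, the proteins that coat oil bodies, are commonly expressed.

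Values are the deposited linear intensities, analysed as log2, and a probe set is the group of array probes that reports 1 transcript. Each array's background level was the highest of 27 control probe sets for Bacillus transcripts, and 76.6% to 84.5% of probe sets lay above it on the 6 arrays. Bacterial and phage spike-in controls were brighter on 35S:AGL15 replicate 3 (mean log2 10.31) than on the other 5 arrays (9.36 to 9.77). Counts without that array, with scaling on these controls and on the 5 arrays with dimmer controls are given below. AGL15 has no probe set in the annotation used here, so the transgene could not be checked. Of 29 marker genes listed for embryo, meristem, leaf, root, stomata and vascular cells, 7 had a probe set in the annotation used here. For embryo these were 0 of 9 and for vascular cells 0 of 4. Probe sets of the other markers may lie among the 8730 without a gene in the annotation, so those markers could not be looked up. None of the 7 was called by limma, and 3 had an unadjusted p under 0.05. The summed level of the 2 root markers with an annotated probe set, EXPA7 and EXPA18, ran from 248 to 341 in 35S:AGL15 and from 151 to 246 in wild type. Of the stomatal markers, FMA had 24.3, 27.2 and 38.1 in 35S:AGL15, against 58.8, 60.1 and 55.4 in wild type, while SPCH and MUTE, not above background on every array of either genotype, had log2 changes of 0.91 and 1.37. The sum over the 3 was 33.6 to 56.6 in 35S:AGL15 and 60.7 to 71.5 in wild type, and the leaf marker RCA ran from 1825 to 2649 in 35S:AGL15 and from 2794 to 3749 in wild type. The meristem marker CLV3 was below background on all 6 arrays, with 16.2, 1.33 and 4.84 in 35S:AGL15 and 15.1, 13.3 and 4.03 in wild type.

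Of 22746 probe sets tested, 838 were called (3.68%): 313 rose (1.38%) and 525 fell (2.31%) in 35S:AGL15 at an adjusted p under 0.05 (limma, Benjamini-Hochberg over all probe sets). After quantile normalization 815 were called (3.58%), of which 418 were higher (1.84%) and 397 were lower (1.75%), and 675 probe sets were called both ways, each with the same sign. The split between directions therefore moved with the scaling: the lower calls were 62.6% of the calls on the deposited scale, 48.7% after quantile normalization, 42.1% after median centring and 75.4% after scaling on the spike-in controls. Over all probe sets, the log2 change had a median of −0.13 on the deposited scale and 0.00 after quantile normalization. The 3 arrays of 35S:AGL15 and the 3 of wild type did not overlap for 5228 probe sets (23.0%), which holds all 838 called ones. In 796 of the 838 the brighter genotype was above background on all 3 arrays, and in 20 it was below on all 3.

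**Figure D1:**
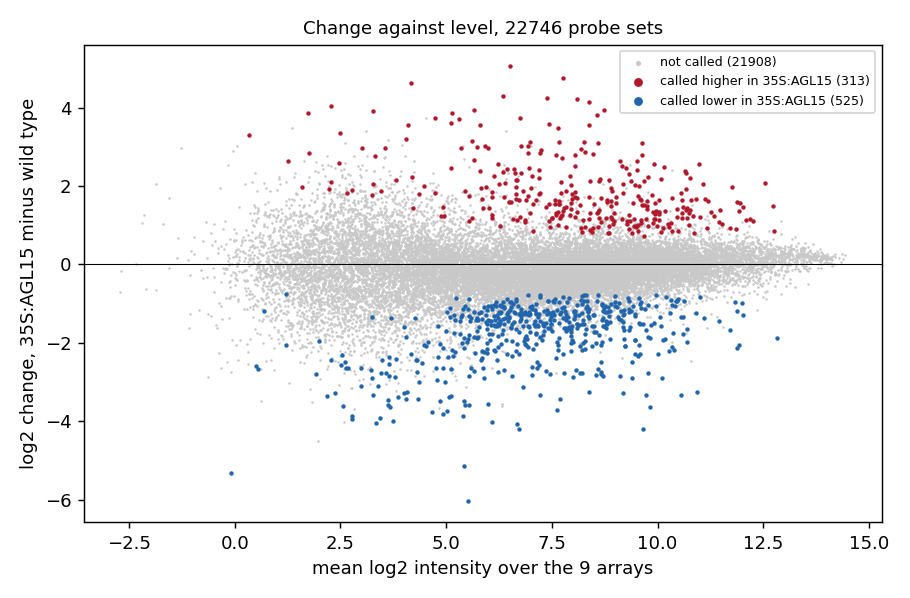
Log2 change of 35S:AGL15 minus wild type (vertical axis) against the mean log2 intensity over the 9 arrays (horizontal axis) for the 22746 probe sets, 1 point each. The 313 higher calls are red, the 525 lower calls blue and the rest grey.

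Probe sets with a locus code and no symbol held 365 of the calls, 145 higher and 220 lower of 11933 tested (3.06%), and probe sets without any gene held 393, 139 higher and 254 lower of 8730 (4.502%). Genes with a symbol held 67, 26 higher and 41 lower of 1580 (4.24%), and the other 13 were probe sets that match several genes. These shares differ along with the level: the median intensity was 113 for locus-coded, 243 for unannotated and 238 for symbol-bearing probe sets, and its part was not tested. Among the locus-coded calls, 47 rises and 68 falls were past 4-fold on the log2 scale, counted with no floor at background. Some of these are not shown to be 4-fold, such as AT5G55450, with a log2 change of −4.00 and a bound of at least 2.15-fold. In 22 of the 336 locus-coded calls whose brighter genotype was above background on all 3 arrays, the dimmer one was below it on all 3. Of 923 pseudogene probe sets, whose median intensity was 6.202, 9 were called (0.975%). In 7 of these 9 the brighter genotype was below background on all 3 arrays. Of 69 plastid-genome probe sets 0 were called by limma, with 6 at an unadjusted p under 0.05 and 1 called after quantile normalization. The annotation gives most locus codes no function, so the functions below are those that a symbol or a descriptive synonym supplies, which holds for 1708 probe sets, 72 of them called. For a gene known by its locus code alone the values are given without a role.

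The 12 largest rises among locus-coded genes included 3 neighbouring genes on chromosome 5, AT5G38160, AT5G38170 and AT5G38180, which follow each other in the order of protein-coding genes in the reference. AT5G38170 had intensities of 2606, 1040.4 and 1669.6 in 35S:AGL15, against 54.8, 105 and 124 in wild type. It was 18.5-fold higher (adjusted p = 0.00487). AT5G38160 had 255, 166 and 133 in 35S:AGL15, against 14.1, 24.6 and 23.4 in wild type, and was 8.84-fold higher (adjusted p = 0.00373). AT5G38180 had 199, 123 and 133 in 35S:AGL15, against 9.52, 2.65 and 8.53 in wild type, and since its wild type arrays lay below background it was at least 8.55-fold higher (adjusted p = 0.0132). Every 35S:AGL15 array was above every wild type array in each of the 3 genes, which was a condition for naming them. Replicate 1 was the highest of the 35S:AGL15 arrays in each. Across the genome, 5878 pairs of neighbouring protein-coding genes had an annotated probe set for both, 399 held at least 1 called gene, and 9 had both called. Of all 13356 genes, each taken by its brightest probe set, 430 were called (3.22%). Whether 9 pairs exceed what that share gives was not tested, so nothing is read from their number.

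Both genes rose in 2 of the 9 pairs, those of this cluster, both fell in 6, and 1 pair had opposite signs. AT4G24130 had 74.1, 119 and 148 in 35S:AGL15, against 361, 406 and 269.7 in wild type, and its neighbour AT4G24140 had 90.6, 61.8 and 132 in 35S:AGL15, against 277, 307 and 233 in wild type. They were 3.12-fold lower and 2.99-fold lower (adjusted p = 0.0221 and 0.0245). AT1G65490 and AT1G65500 were 2.88-fold lower and 3.11-fold lower, and AT5G53020 and AT5G53030 were 2.11-fold lower and 2.31-fold lower. The pair AT3G57380 and AGL18 were 1.71-fold lower and 2.78-fold lower. AT3G04010 was 2.003-fold lower, and its neighbour AT3G04000 fell with no fold given (17.9, 41.5 and 19.5 in 35S:AGL15, against 157, 89.6 and 122 in wild type). The sixth pair was CYP71B26 and CYP71B34, described with the P450 genes. In the opposite pair, AT3G26450 had 68.9, 108 and 87.2 in 35S:AGL15, against 222, 286 and 204 in wild type, and was 2.71-fold lower, whereas AT3G26460 was higher in 35S:AGL15 and lay below background in both genotypes (8.49, 5.597 and 3.84 in 35S:AGL15, against 0.567, 1.21 and 0.738 in wild type). AT4G24140, AT1G65490, AT5G53020, AT5G53030, AT3G57380, AGL18 and AT3G04010 did not pass the test after quantile normalization (adjusted p = 0.0767, 0.0536, 0.0839, 0.0927, 0.206, 0.107 and 0.111).

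The other 9 of the 12 largest rises were single genes. AT1G04660 had 1082, 472 and 633 in 35S:AGL15, against 29.4, 33.9 and 47.2 in wild type, and was 19.02-fold higher (adjusted p = 0.00802). AT2G34700 had 1477, 1454 and 914 in 35S:AGL15, against 57.3, 72.1 and 86.7 in wild type, and was 17.6-fold higher (adjusted p = 0.00554). AT3G24250 had 2273, 1081 and 1323 in 35S:AGL15, against 63.7, 130.1 and 142 in wild type, and was 14.04-fold higher (adjusted p = 0.00807). In these 3 genes the lowest 35S:AGL15 array was several times the highest wild type array. AT4G28703 (766, 496 and 756 in 35S:AGL15, against 41.2, 46.98 and 107 in wild type) was 11.2-fold higher and AT1G70420 (899, 576 and 749 in 35S:AGL15, against 54.8, 71.6 and 149.8 in wild type) was 8.703-fold higher, with adjusted p = 0.00487 and 0.0127. AT2G28490 had 547, 546 and 319 in 35S:AGL15, against 36.5, 41.9 and 92.01 in wild type, and was 8.78-fold higher (adjusted p = 0.0362). Wild type replicate 3 was the highest wild type array in each of AT4G28703, AT1G70420 and AT2G28490. AT4G27657 had 114, 85.7 and 85.5 in 35S:AGL15, against 5.66, 3.64 and 13.1 in wild type, below background in wild type, and was at least 5.44-fold higher (adjusted p = 0.0116). AT2G15010 (209, 114 and 153 in 35S:AGL15, against 10.8, 5.19 and 28.9 in wild type) and AT5G08460 (266, 144 and 212 in 35S:AGL15, against 19.6, 18.9 and 13.6 in wild type) passed the test (adjusted p = 0.0193 and 0.00251), and no fold is given for them because 1 of the 3 wild type arrays was above background and the other 2 were not.

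Ranked by log2 change with no floor at background, the largest falls were mostly genes that dropped below it in 35S:AGL15. This ranking favours dim genes, whose bounds can be smaller than the folds of brighter genes left out of the 12. Of the 12, AT1G49470 and AT4G12490 stayed measurable. AT1G49470 had 30.4, 62.8 and 44.4 in 35S:AGL15, against 587, 456 and 393 in wild type, and was 10.7-fold lower (adjusted p = 0.00306). AT4G12490 had 80.2, 93.4 and 53.2 in 35S:AGL15, against 885, 577 and 695 in wild type, and was 9.62-fold lower (adjusted p = 0.0118). Of the 9 genes with every 35S:AGL15 array below background, AT4G13580 had 12.1, 3.74 and 14.3 in 35S:AGL15, against 257, 102 and 75.6 in wild type, and was at least 5.94-fold lower (adjusted p = 0.0173). AT1G35350 had 11.8, 1.62 and 11.96 in 35S:AGL15, against 86.9, 83.2 and 74.99 in wild type, and was at least 3.86-fold lower (adjusted p = 0.0302). AT1G69730 had 4.123, 6.82 and 7.32 in 35S:AGL15, against 63.4, 94.98 and 85.5 in wild type, and was at least 3.79-fold lower (adjusted p = 0.0139). In these 3 genes no 35S:AGL15 array came near the lowest wild type array. AT4G14090 had 5.78, 9.33 and 8.34 in 35S:AGL15, against 92.2, 71.3 and 78.2 in wild type, and was at least 3.79-fold lower. AT3G20450 (4.06, 4.67 and 7.68 in 35S:AGL15, against 70.9, 47.9 and 74.5 in wild type) and AT5G55450 (2.33, 4.07 and 2.404 in 35S:AGL15, against 46.4, 51.5 and 39.1 in wild type) were at least 2.99-fold lower and at least 2.15-fold lower, with adjusted p = 0.00247 and 0.00347. AT1G55660, AT3G56080 and the pseudogene AT4G04410 were dimmer, with bounds of at least 1.59-fold lower, at least 1.41-fold lower and at least 1.71-fold lower. AT5G43180 had 29.1, 4.71 and 5.12 in 35S:AGL15, against 103, 73.4 and 157 in wild type, and no fold is given since 1 of its 35S:AGL15 arrays was above background (adjusted p = 0.0301). AT1G35350 and AT5G43180 did not pass the test after quantile normalization (adjusted p = 0.0502 and 0.0611).

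**Figure D2:**
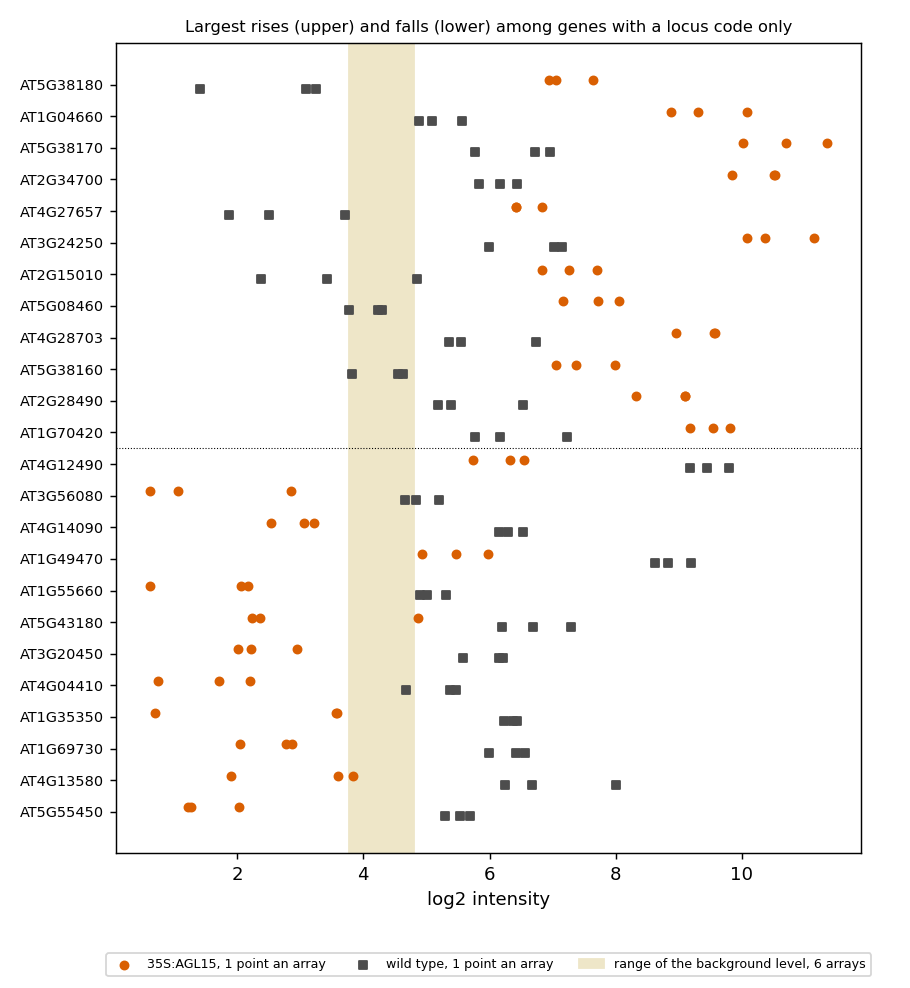
Log2 intensity (horizontal axis) of the 12 largest rises (upper rows) and the 12 largest falls (lower rows) among genes with a locus code only. Each orange point is 1 array of 35S:AGL15 and each grey square 1 array of wild type. The band is the range of the background level over the 6 arrays. In every row the genotypes do not overlap, which was a condition of the choice.

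Among the probe sets with no gene in the annotation, the largest rises were 258240_at and 267431_at, and the largest falls 247573_at and 255127_at. Probe set 267431_at had 451, 629 and 208 in 35S:AGL15, against 7.57, 27.4 and 36.95 in wild type, and was 19.7-fold higher (adjusted p = 0.0154). In 258240_at (774, 501 and 219 in 35S:AGL15, against 5.89, 4.89 and 80.3 in wild type) wild type replicate 3 stood well above the other wild type arrays. Probe set 247573_at had 1.61, 3.901 and 3.52 in 35S:AGL15, against 256, 159 and 149 in wild type, so that all 35S:AGL15 arrays lay below background, and was at least 8.62-fold lower (adjusted p = 0.00244). For 255127_at (4.76, 20.8 and 1.34 in 35S:AGL15, against 199, 141 and 205 in wild type) the adjusted p was 0.0181.

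Among the 72 called probe sets with a symbol or a descriptive synonym, 26 rose and 46 fell. By the words in those names, 30 function classes were searched, and 38 of the 519 probe sets in any class were called (7.32%), 16 higher and 22 lower. Without 35S:AGL15 replicate 3 these were 9 higher and 22 lower. The share is above the 3.68% of all probe sets, and named genes are brighter (median intensity 190.1, against 164), so nothing is read from it about the classes. Most of the genes that follow were chosen after their values were seen, because the annotation gives them a function.

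Wall-modifying and growth-related genes moved in both directions. Of 61 cell wall members 3 were called (4.92%, against 3.68% of all probe sets), 2 higher and 1 lower. Their class had a median log2 change of −0.13, against −0.13 over all probe sets. EXPA8, an expansin that loosens the cell wall, had 1432, 1529 and 1464 in 35S:AGL15, against 319, 383 and 411 in wild type, and was 3.995-fold higher (adjusted p = 0.00326). XTH26, an enzyme that cuts and rejoins xyloglucan chains of the wall, had 63.2, 53.3 and 51.8 in 35S:AGL15, against 3.75, 4.31 and 3.11 in wild type, and was at least 3.23-fold higher (adjusted p = 0.00487). EXO (EXORDIUM), a gene linked to brassinosteroid-driven growth, had 8592, 8459.7 and 9870.1 in 35S:AGL15, against 5332, 5267 and 4443 in wild type, and was 1.79-fold higher (adjusted p = 0.0419). PMEPCRF, a pectin methylesterase, had 107, 218 and 159.6 in 35S:AGL15, against 746, 757 and 485 in wild type, and was 4.19-fold lower (adjusted p = 0.0197). AT5G66390, whose synonym PRX72 names a class III peroxidase, enzymes that take part in lignin formation, had 18.98, 15.02 and 29.7 in 35S:AGL15, against 153, 124 and 108 in wild type, and fell (adjusted p = 0.00487), with no fold given because 1 of its 35S:AGL15 arrays was above background. UPB1 (UPBEAT1), a transcription factor known to lower peroxidase expression in the root, had 2227, 921 and 1708 in 35S:AGL15, against 299.8, 218 and 636 in wild type, and was 4.39-fold higher (adjusted p = 0.0400). AT1G08280, a glycosyltransferase with the synonym GALT29A, had 183, 120.3 and 175 in 35S:AGL15, against 383, 437 and 342 in wild type, and was 2.46-fold lower (adjusted p = 0.0233). EXO and AT1G08280 did not pass the test after quantile normalization (adjusted p = 0.0718 and 0.0765).

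Of 10 auxin members 4 were called (40%, against 3.68% of all probe sets), 2 higher and 2 lower. The 10 had a median log2 change of 0.13, and with so few members nothing is read from the share. IAA20 and IAA30, Aux/IAA proteins that repress auxin-responsive transcription, were 2.02-fold higher and 2.29-fold higher (adjusted p = 0.0423 and 0.0434), and IAA29 of the same family was 2.22-fold lower (adjusted p = 0.0406). GH3.9, which the reference annotates as a putative enzyme that joins auxin to amino acids, had 30.5, 37.5 and 41.7 in 35S:AGL15, against 89.00, 97.2 and 72.9 in wild type, and was 2.36-fold lower (adjusted p = 0.0193). PID2 (PINOID2), a relative of the kinase PINOID that sets the placement of auxin efflux carriers, was not in the searched class and had 312, 450.5 and 287 in 35S:AGL15, against 88.7, 73.04 and 105 in wild type. It was 3.896-fold higher (adjusted p = 0.00782). IAA29 did not pass the test after quantile normalization (adjusted p = 0.0739).

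Of 45 protease members 4 were called (8.89%, against 3.68% of all probe sets), 3 higher and 1 lower (median log2 change −0.11). SCPL45, a serine carboxypeptidase-like protein, had 3677, 3094 and 3706 in 35S:AGL15, against 1572, 1354 and 1565 in wild type, and was 2.33-fold higher (adjusted p = 0.0127). Its relative scpl30 was at least 2.31-fold higher (adjusted p = 0.00554), and CP1, a papain-type cysteine proteinase, was 5.31-fold higher (adjusted p = 0.0132). SBT4.12, a subtilisin-like serine protease, had 23.8, 47.8 and 27.9 in 35S:AGL15, against 548, 619 and 432 in wild type, the largest fall among genes with a symbol, and was 16.7-fold lower (adjusted p = 0.00343). ALPHA-VPE, a vacuolar processing enzyme that cuts other vacuolar proteins, had 333, 466 and 328 in 35S:AGL15, against 2123, 1126 and 1095 in wild type, and was 3.72-fold lower (adjusted p = 0.0414).

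Of 87 transcription factor members 5 were called (5.75%, against 3.68% of all probe sets), 1 higher and 4 lower. Their class had a median log2 change of −0.22, against −0.13 over all probe sets. AGL16, a MADS-box gene like AGL15, had 48.5, 68.4 and 63.1 in 35S:AGL15, against 142, 167 and 175 in wild type, and was 2.704-fold lower (adjusted p = 0.0154). AGL18, which acts alongside AGL15, had 55.8, 52.4 and 90.8 in 35S:AGL15, against 171, 177 and 189 in wild type, and was 2.78-fold lower (adjusted p = 0.0353, and 0.107 after quantile normalization). The same probe set had 113, 68.5 and 62.6 in the double mutant that has lost AGL18 function, above background on all 3 arrays. How much of its signal reports functional AGL18 was not tested. WRKY53, a factor of leaf ageing, was 2.38-fold lower (adjusted p = 0.0348), whereas WRKY22, a factor of the immune response, had 222, 367 and 307 in 35S:AGL15, against 102, 94.6 and 89.4 in wild type, and was 3.07-fold higher (adjusted p = 0.0214). ALC (ALCATRAZ), needed for opening of the fruit, was 1.94-fold lower, RBE (RABBIT EARS), a petal development factor, was at least 1.98-fold lower, and AT1G22490 (bHLH94) was 1.897-fold lower, with adjusted p = 0.0289, 0.0275 and 0.0365. ALC and RBE lay outside the searched class, as did MYR2, a MYB-related factor that was 2.55-fold lower (adjusted p = 0.0351). WRKY53, ALC, AT1G22490 and MYR2 did not pass the test after quantile normalization (adjusted p = 0.133, 0.0942, 0.193 and 0.0868).

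Defence and stress genes held the largest rise among genes with a symbol. Of 20 defence members 3 were called (15%, against 3.68% of all probe sets), 2 higher and 1 lower. Their class had a median log2 change of −0.01. LCR67, a plant defensin also called PDF1.1, had 1456, 1529.7 and 2409 in 35S:AGL15, against 44.9, 45.2 and 134 in wild type, and was 26.99-fold higher (adjusted p = 0.00331), whereas its relative LCR68 had 1329, 963 and 2324 in 35S:AGL15, against 3691, 4595 and 5689.8 in wild type, and was 3.19-fold lower (adjusted p = 0.0336). THI2.2, a thionin, another small antimicrobial peptide, was at least 3.71-fold higher (adjusted p = 0.0368). Among the U-box ubiquitin ligases, PUB19 (962, 731 and 448 in 35S:AGL15, against 102, 53.6 and 128 in wild type) and PUB22 (361, 516 and 518 in 35S:AGL15, against 169, 108 and 145 in wild type) were 7.66-fold higher and 3.31-fold higher, and PUB43 was 2.11-fold lower. GSTU28, a glutathione S-transferase, was 3.83-fold higher (adjusted p = 0.0312). CML38, a calmodulin-like calcium sensor, had 3272, 2368 and 3394 in 35S:AGL15, against 515, 741 and 1278 in wild type, and was 3.78-fold higher (adjusted p = 0.0314). Fes1B, a co-chaperone of Hsp70 proteins, had 375, 306 and 324 in 35S:AGL15, against 84.5, 113 and 128 in wild type, and was 3.12-fold higher (adjusted p = 0.00974). MSRB5, which reduces oxidised methionine in proteins, had 411, 772 and 611 in 35S:AGL15, against 2897, 2426 and 2514 in wild type, and was 4.499-fold lower (adjusted p = 0.00945).

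On the deposited scale the called cytochrome P450 and glycosyltransferase members fell, 3 of 24 and 5 of 47. These were 12.5% and 10.6%, against 2.31% of all probe sets called lower. The median log2 changes of the 2 classes were −0.17 and −0.61, against −0.13 over all probe sets. After quantile normalization 5 glycosyltransferase members were called, 2 higher and 3 lower. The P450 genes were CYP71B26, CYP71B34 and CYP71B23, and CYP71B26 and CYP71B34 are neighbours. CYP71B26 had 34.4, 37.1 and 23.8 in 35S:AGL15, against 218, 258 and 362 in wild type, and was 8.76-fold lower (adjusted p = 0.00487). CYP71B34 had 36.4, 50.9 and 44.01 in 35S:AGL15, against 124, 144 and 118 in wild type, and was 2.96-fold lower (adjusted p = 0.00856). CYP71B23 had 76.00, 61.1 and 48.7 in 35S:AGL15, against 192, 199 and 179 in wild type, and was 3.12-fold lower (adjusted p = 0.0127). UGT74B1, which adds glucose in the making of glucosinolates, had 441, 576 and 323 in 35S:AGL15, against 1055, 913 and 882 in wild type, and was 2.18-fold lower (adjusted p = 0.0453). BCAT4, an aminotransferase of the chain elongation that gives methionine-derived glucosinolates, had 389.5, 292 and 424 in 35S:AGL15, against 1136, 1308 and 1508 in wild type, and was 3.595-fold lower (adjusted p = 0.00559). UGT76E11 was 3.67-fold lower and GT72B1 1.88-fold lower (adjusted p = 0.00807 and 0.0485). UGT85A5 also fell, with its 35S:AGL15 arrays below background and no fold given (3.26, 2.51 and 4.54 in 35S:AGL15, against 15.6, 27.8 and 13.8 in wild type). Among beta-glucosidases, enzymes that release glucose from glycosides, BGLU44 was 2.31-fold lower and BGLU40 1.79-fold lower (adjusted p = 0.0264 and 0.0385). GT72B1 and BGLU40 did not pass the test after quantile normalization (adjusted p = 0.151 and 0.131).

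Of 32 members of the transporter class 2 were called (6.25%, against 3.68% of all probe sets), both lower. The class had a median log2 change of −0.33. The further genes of this paragraph were picked after the calls were seen. SWEET11, a plasma membrane sucrose exporter, had 284, 322 and 408 in 35S:AGL15, against 3067, 3854 and 3280.4 in wild type, and was 10.1-fold lower (adjusted p = 0.00244). SWEET13, of the same family, had 41.6, 57.9 and 71.1 in 35S:AGL15, against 155, 265 and 165 in wild type, and was 3.41-fold lower (adjusted p = 0.0165). Outside the class, AT2G26690 (NPF6.2), of the nitrate and peptide transporter family, was 2.15-fold lower, and LPR2 (LOW PHOSPHATE ROOT2), a root growth gene of phosphate shortage, was 2.86-fold lower (adjusted p = 0.0275 and 0.0419). AT4G24450, for which the reference gives the symbol PWD (phosphoglucan water dikinase), was 3.298-fold lower (adjusted p = 0.0232). AT2G26690 did not pass the test after quantile normalization (adjusted p = 0.0502).

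The remaining annotated genes were picked after the calls were seen, among them 3 genes of metabolic enzymes that fell and 3 of seed products that rose. FDH, the mitochondrial formate dehydrogenase, had 163, 319.7 and 169 in 35S:AGL15, against 2484, 1922 and 1853 in wild type, and was 10.02-fold lower (adjusted p = 0.00932). AT4G33150, the lysine-degrading enzyme LKR/SDH, had 188, 245 and 168 in 35S:AGL15, against 572, 465 and 522 in wild type, and was 2.62-fold lower (adjusted p = 0.0133), and DPL1, a sphingolipid-breaking lyase, was 2.39-fold lower (adjusted p = 0.0267). ATC, which resembles the gene TFL1 that delays flowering, had 65.7, 133 and 102 in 35S:AGL15, against 825, 603 and 705 in wild type, and was 7.32-fold lower (adjusted p = 0.00347). OLEO3, an oleosin, was 6.21-fold higher (2511, 1796 and 1485 in 35S:AGL15, against 288, 218 and 444 in wild type), the storage protein gene PAP85 was 4.48-fold higher, and SDT, an acyltransferase of seed spermidine conjugates, had 83.3, 58.3 and 33.9 in 35S:AGL15, against 16.2, 10.5 and 14.7 in wild type with no fold given (adjusted p = 0.0127, 0.0382 and 0.0314). Phox4, GLR1.4 and GILT were 2.25-fold lower, 1.95-fold lower and at least 1.29-fold lower (adjusted p = 0.0421, 0.0451 and 0.0498), and ATSBT5.2, a further subtilase, was at least 1.96-fold lower (adjusted p = 0.0451). ZCF37 was higher, and ATSPS4F, BGLU33, ZIP6 and chr31 were lower, each past the threshold with 1 of 3 arrays of the dimmer genotype above background and so no fold, and BGLU32 and RR22 were called lower without being above background on every wild type array. Of 8 members of the seed storage, oil body and LEA class with an annotated probe set, OLEO3 was the 1 called (12.5%, against 3.68% of all probe sets). By sign, 5 of the 8 were higher and 3 lower, down to a log2 change of −1.27. After quantile normalization 2 were called, 1 higher and 1 lower. PAP85 lay outside that class, and SDT was in the lipid metabolism class. The called mitochondrial genome probe sets, of nad1, nad6, cox2 and ccb452, had log2 changes of 1.37, 1.21, 1.12 and 0.96. A further 6 nad1 probe sets were not called (log2 0.54 to 1.27). How many mitochondrial genome probe sets were tested was not counted, so no share is given and nothing is read about that genome. Phox4, GLR1.4, GILT, ATSBT5.2, chr31, nad6 and cox2 did not pass the test after quantile normalization (adjusted p = 0.0737, 0.101, 0.0868, 0.0696, 0.0848, 0.0531 and 0.0514).

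**Figure D3:**
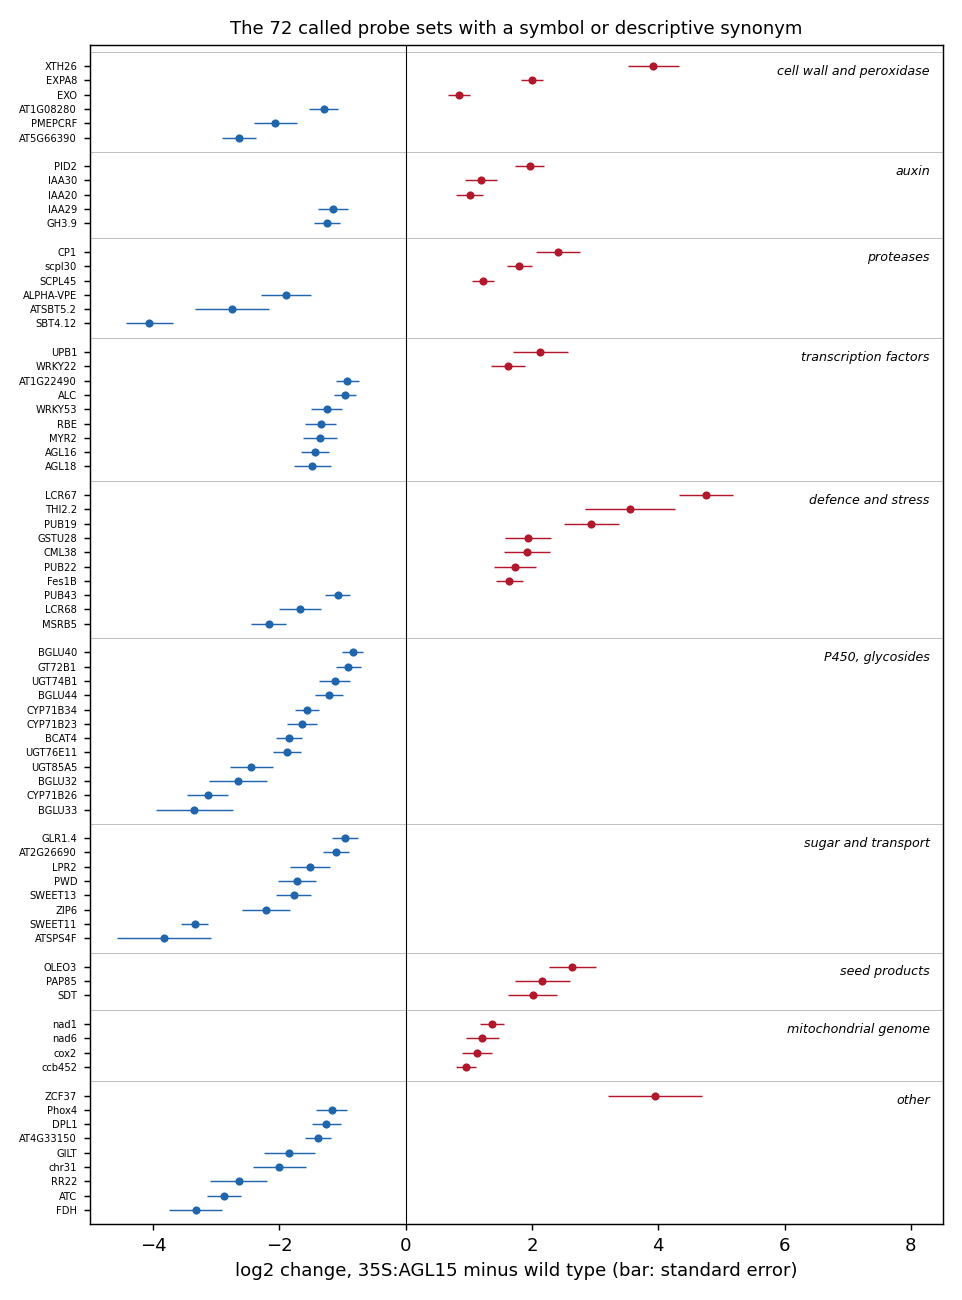
Log2 change of 35S:AGL15 minus wild type (horizontal axis, bar: standard error from limma) of the 72 called probe sets with a symbol or descriptive synonym, grouped by role. Of the 72, 46 lie left of 0 and 26 right. The role groups were made from the called genes after the calls were seen, so nothing is read from the direction of a group.

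The replicates of a genotype were not interchangeable in every gene. Among the 145 higher locus-coded calls, replicate 1 was the highest 35S:AGL15 array in 65, replicate 2 in 23 and replicate 3 in 57, and wild type replicate 3 was the highest wild type array in 87, against 29 each for replicates 1 and 2. Among the 220 lower ones, replicate 3 was the highest 35S:AGL15 array in 102 and replicate 1 in 37, and wild type replicate 2 was the highest wild type array in 97 and replicate 3 in 55. Without 35S:AGL15 replicate 3, whose spike-in controls were brighter, 566 probe sets were called, 170 higher and 396 lower, and the locus-coded calls were 83 higher and 176 lower. On the 5 arrays with dimmer spike-in controls, 47 were called, 7 higher and 40 lower. Of the 111 called genes and probe sets named or singled out, 7 passed the test under each of the settings that tested them, and 53 passed under fewer than 50% of those. The 7 were AT2G34700, AT5G55450, AT3G20450, AT5G66390, SWEET11, XTH26 and the unannotated 247573_at. The 53 include genes that did pass after quantile normalization, so a gene without that remark above is not thereby stable. Of the 16 other settings, LPR2 and ALPHA-VPE passed 5, and AT2G28490 and IAA20 passed 6. IAA30, UPB1, CML38, PUB22 and 258240_at passed 7.

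**Figure D4:**
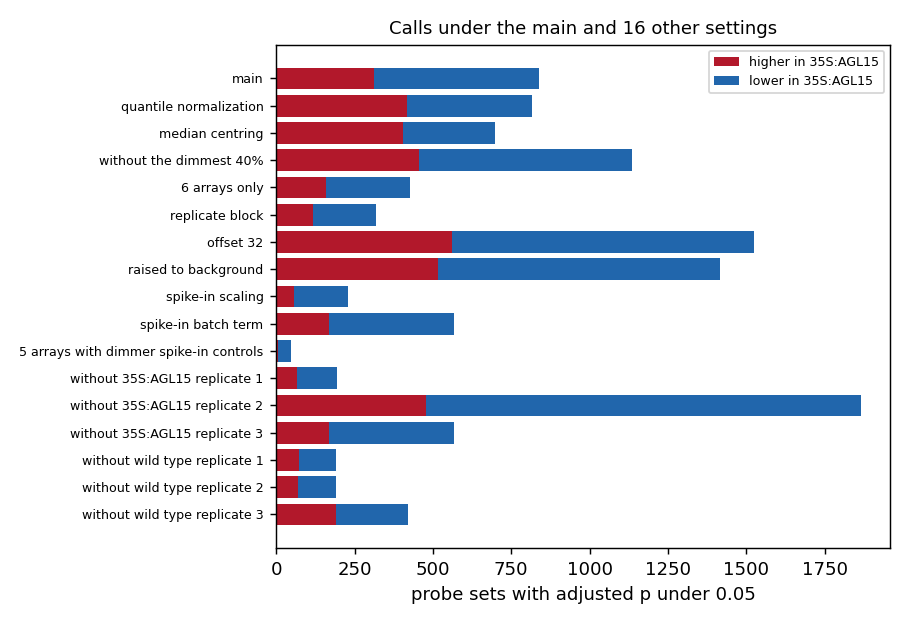
Number of probe sets with adjusted p under 0.05 (horizontal axis) under the main and 16 other settings (the batch term and leaving out 35S:AGL15 replicate 3 give the same counts), with the higher calls in red and the lower calls in blue. The total runs from 47 on the 5 arrays with dimmer spike-in controls to 1867 without 35S:AGL15 replicate 2.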

How the data were processed

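Total RNA (4 µg a sample) was labelled and hybridised to Affymetrix expression arrays, 3 for each of 3 genotypes, per the labels' protocols. The authors deposited a linear intensity for each probe set, with the trimmed mean set to a common value on every array; the sources used here do not name the software, the summary or the background correction. Of 22810 probe sets, 64 controls were left out. Group means were fitted to log2 of the intensity of the 9 arrays (limma 3.58.1 in R 4.3.3, lmFit with eBayes), with Benjamini-Hochberg adjustment over 22746 probe sets; "rose", "fell" and "called" mean an adjusted p under 0.05. A fold is a bound ("at least") where the dimmer genotype was below background on all 3 arrays, computed against the background level, and is not given where 1 of its 3 arrays was above or where the brighter genotype was not above on all 3. Precision is limited by the number of arrays. Genes were named from the array annotation and a reference gene table (TAIR10.1), used for names and for the order of genes only. Function classes were searched by words in symbols and synonyms, since the table has no descriptions; the planned grouping by protein match was not run, as no protein table was used here, and 1 search word (thionin) that also matched methionine was corrected after the results were seen. Named by rule were the 12 largest rises and 12 largest falls with a locus code, up to 3 further called locus-coded members a class, 2 rises and 2 falls without a gene, AGL15, AGL18 and the markers, all non-overlapping and above background in the brighter genotype. The role groups of the plot of annotated genes were made after the calls were seen. The members, classes and lists were chosen with earlier results of these data known. No block was used in the main fit, since the labels do not say that a replicate number marks a shared batch. Same-numbered replicates also did not pair (correlations of deviations −0.09 to 0.03).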

Additional observations from a re-analysis of the deposited data

How the results depend on the processing

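The main counts were 838 probe sets, 38 class members and 31 named genes. Quantile normalization and median centring left all 3 counts within 1.5 times of these. A fit to the 6 arrays alone gave 427 probe sets, 24 class members and 21 named genes. The replicate block gave 320 probe sets, 19 class members and 22 named genes. An offset of 32 gave 1525 probe sets, 59 class members and 31 named genes, and raising low values to the background level gave 1417 probe sets, 60 class members and 28 named genes. Without the dimmest 40% of probe sets there were 1134 probe sets, 43 class members and 13 named genes, since many named genes are dim and were not tested. Settings chosen after the data were seen were these: scaling on the 9 spike-in probe sets gave 228 probe sets, 13 class members and 28 named genes, and the 5 arrays with dimmer spike-in controls gave 47 probe sets, 2 class members and 8 named genes. A batch term for the brighter controls, which also cover all double mutant arrays, gave the same counts as leaving out 35S:AGL15 replicate 3 and is no separate check. Leaving out 1 array at a time gave 191 to 1867 probe sets, 11 to 65 class members and 15 to 28 named genes; by array, the probe sets were 195, 1867 and 566 without 35S:AGL15 replicates 1, 2 and 3, and 192, 191 and 422 without wild type replicates 1, 2 and 3. The cause of these shifts was not tested. With low values raised to background, BGLU32, UGT85A5 and RR22, which lie near or below background in both genotypes, had log2 changes of 0.29, 0.15 and 0.10, against −2.66, −2.44 and −2.64 without.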

Other observations

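The agl15 agl18 double mutant arrays, not part of the comparison, gave these intensities for some of the genes described above. The choice of genes followed no stated rule. The neighbours AT5G38160, AT5G38170 and AT5G38180 had 32.5, 33.9 and 32.04, 191, 104 and 137 and 3.45, 5.06 and 16.4 on its 3 arrays. AT1G04660 had 356, 91.8 and 198, AT2G34700 737, 204 and 472 and AT3G24250 398, 209 and 522. EXPA8 had 686, 916 and 816, SWEET11 2468, 3145 and 3353 and CYP71B26 114, 226 and 193. In some other genes, all double mutant arrays lay on the same side of wild type as the constitutive AGL15 arrays. Of these, WRKY22 had 225, 419 and 310, PUB19 271, 478 and 553 and SBT4.12 82.1, 39.8 and 85.7. ATC had 262, 234 and 250 and AT3G20450 6.33, 4.94 and 5.35. How many genes share a direction was not counted, and double mutant against wild type was not tested. A change described above is therefore not shown to be particular to constitutive AGL15 expression.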
